A study of Zea mays with 21 samples.

Results

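The 150 genes described here are those whose transcripts stood highest in V4-stage over V9-stage leaf of wild-type (WT) maize. They were chosen from 50142 gene IDs by the ratio of the lowest level in 3 WT leaf libraries of the V4 stage to the highest level in 3 WT leaf libraries of the V9 stage, with levels in CPM (counts scaled to a common library total) and 1 CPM added to both. The WT leaf libraries therefore fixed how the genes behave in WT leaf, and those values are given as a description with no test. The mutant zb10 and both endosperm groups took no part in the choice, and tests are given only among them.

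The study compared WT maize with zb10, described in the series title as a loss of function in ZmPTOX, with zebra leaf and white kernel. Transcripts were counted in 21 libraries in 7 groups of 3, described as biological replicates: WT leaf at V4 (the 4th-leaf stage), the green and the white section of zb10 leaf at V4, leaf of both genotypes at V9 (the 9th-leaf stage), and endosperm of both genotypes taken 16 days after pollination. The labels give no other treatment, no inbred background and no leaf section for V9. Each group is thus defined by genotype, tissue, stage and, at V4, leaf section.

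As a maize plant forms successive leaves it passes from a juvenile to an adult vegetative phase. Juvenile leaves carry epicuticular wax and lack the hairs of adult leaves, and the change is governed by conserved microRNAs that act in opposite directions. The plastid terminal oxidase lost in zb10 oxidises plastoquinol and takes part in carotenoid desaturation, and zebra mutants form pale bands across leaves that are otherwise green. Endosperm is the storage tissue of the kernel.

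The gene IDs were not paired with names: 0 of 50142 matched the reference table used here. The mutated gene, pathway lists and tissue markers were therefore not looked up by name, and the 150 genes are given by ID with no function. Library totals ran from 28237880 to 53092962 counts, with WT V9 replicate 1 at 123050963. White section replicate 3 stood apart in composition: its 50 most abundant IDs took up 11.9% of the library, where white replicates 1 and 2 had 17.3% and 17.4% and the green section 19.4% to 22.4%. Levels are not corrected for gene length, so they are compared mainly between libraries. Where neighbouring or top-ranked genes are set against each other, only the constancy of their ratio across libraries is given. Where IDs are ranked or counted by level, as with the most abundant IDs, gene length was not accounted for.

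The highest ratio in WT leaf belonged to Zm00001d044228. Its level was 3592, 3322 and 3803 CPM in the WT V4 libraries and 4.19, 1.11 and 4.996 CPM in the WT V9 libraries. Zea_mays_newGene_7978 ranked second, with 2619, 2589 and 2793 CPM at V4 and 0.146, 0.677 and 3.81 CPM at V9. Across the 9 V4 libraries of both genotypes, its ratio to Zm00001d044228 varied by 1.07-fold from lowest to highest. Outside V4 the ratio was not constant. The 2 loci had 18 and 516 counts in WT V9 replicate 1, and 27 and 28 in zb10 V9 replicate 2. In WT endosperm replicate 2 they had 10 and 435, and in zb10 endosperm replicate 2 they had 76 and 92. Whether the authors' counting divided shared reads between these loci is not known. Zm00001d023781 followed with 561, 549 and 588 CPM at V4 and 0.317, 0.277 and 0.4996 CPM at V9, and Zm00001d041365 with 687, 699 and 783 CPM at V4 and 0.479, 0.954 and 0.404 CPM at V9. Among the 150 genes the log2 ratio used for the choice ran from 3.57 to 9.11, with a median of 4.45. The last genes inside were Zm00001d045537 at 3.60 and Zea_mays_newGene_4269 at 3.57. Just outside were Zm00001d043536 at 3.55 and Zea_mays_newGene_9281 at 3.55, so the limit fell within a continuous range.

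New loci, which carry IDs of the newGene form and not reference-style IDs, made up 76 of the 150 genes (50.7%) and 10819 of the 50142 IDs (21.6%). The lowest V4 level among the 150 genes was 11.5 CPM, and 11104 IDs reached this level in each WT V4 library. New loci were 349 of those (3.14%). The rule did not use the kind of ID, and the difference is given as a description. By number of the ID, 6 of the 74 reference-style genes lay within 10 of another: Zm00001d015053 with Zm00001d015054, and Zm00001d044396, Zm00001d044399, Zm00001d044401 and Zm00001d044402 together. Across the 9 V4 libraries the ratio within the 7 pairs they form varied by 1.09-fold (Zm00001d044401 and Zm00001d044402) to 1.59-fold (Zm00001d044396 and Zm00001d044399). Of the new loci, 15 lay within 10 of another, in 9 pairs whose ratio varied by 1.78-fold to 3.62-fold. Whether any of these neighbours are copies that share reads was not tested, so their values are uncertain as separate measurements. These groups of neighbours were named after their values were seen.

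**Figure D1:**
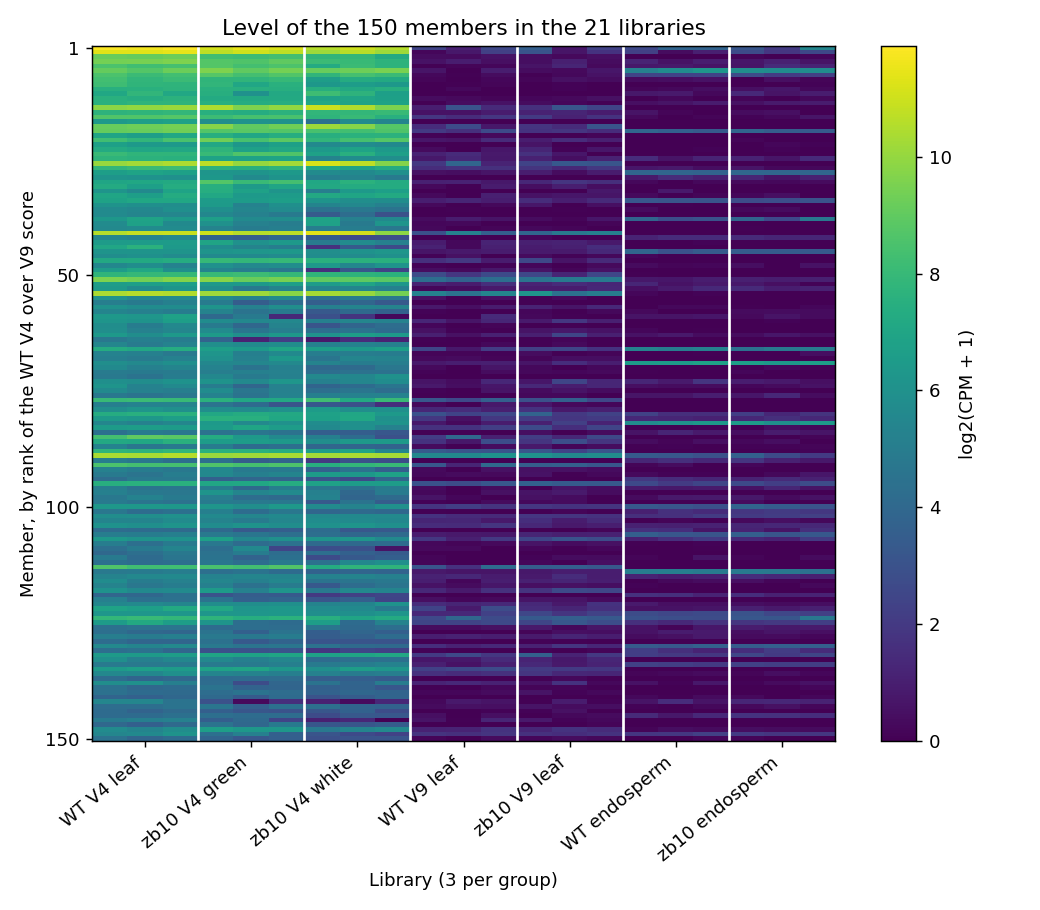
Heat map of log2(CPM + 1) for the 150 genes (rows, by rank of the WT V4 over V9 ratio) in 21 libraries (columns, 3 per group, white lines between groups). The 9 V4 libraries are high in both genotypes, apart from a few dark rows in zb10, and the V9 and endosperm libraries are low apart from a few rows.

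The 150 genes together held 2.51 ± 0.205% of counts in the zb10 green section (SD, n = 3), with 2.74%, 2.34% and 2.47% in the 3 libraries. The white section held 2.30%, 2.24% and 1.76%, a mean of 2.10 ± 0.296%. These ranges did not overlap, and white replicate 3, the library that stood apart, had the lowest share. In zb10 V9 leaf the share was 0.0405%, 0.0337% and 0.0351%, and in zb10 endosperm 0.0508%, 0.0419% and 0.0532%. WT endosperm was close to zb10 endosperm, at 0.0448%, 0.0447% and 0.0508%. In the WT leaf libraries that made the choice the share was 2.90 ± 0.128% at V4 and 0.0304 ± 0.00383% at V9. The 10 genes with most counts held 50.9% of the counts of the 150 genes in the green section.

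**Figure D2:**
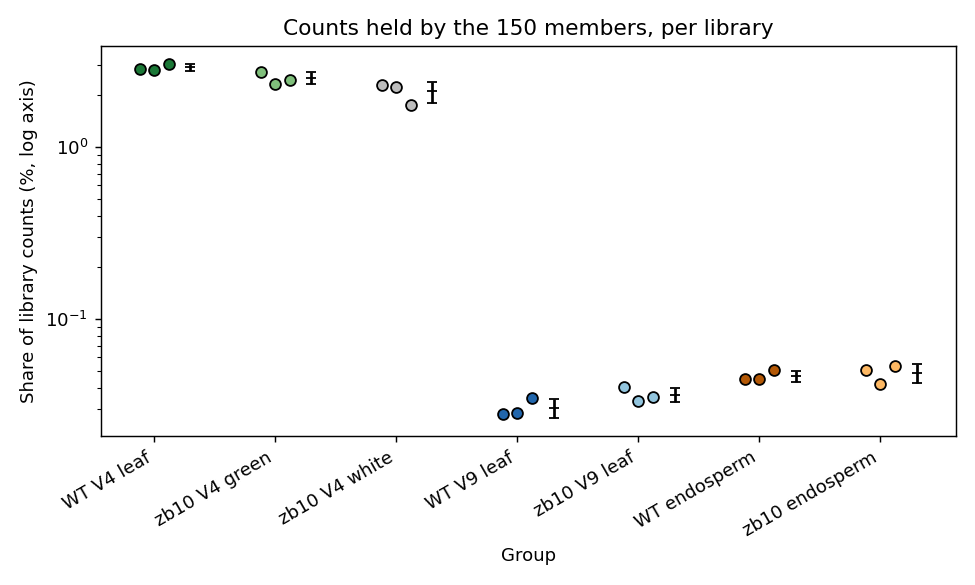
Share of library counts held by the 150 genes (percent, log axis) in each library, with the group mean and SD (n = 3) at the right of each group. The V4 libraries lie between 1.76% and 3.05%, and the V9 and endosperm libraries between 0.0280% and 0.0532%.

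The stage difference was then measured in zb10, in libraries that took no part in the choice. All but 1 of the 150 genes were higher in the zb10 V4 green section than in zb10 V9 leaf and 0 were lower (edgeR quasi-likelihood test, adjusted p under 0.05). All 150 had an unadjusted p under 0.05 in this test, beside 14039 of the 27361 IDs tested. Over the 27361 IDs tested, 21.9% were called higher in the green section and 21.5% lower. In this and the white-section comparison with V9, the IDs tested were not restricted to the V4 level of the 150 genes. The median log2 fold change was 6.51 for the 150 genes and -0.02 for all IDs tested. All 150 genes passed the count filter, and for genes near 0 at V9 they passed through the V4 libraries. In all but 1 of the 150 genes each green library exceeded each V9 library, against 25.2% of all IDs tested. The median gene stood at 1.11% of its green-section level at V9, and 2 genes stood above 10%. When the same ratio was computed in zb10 green section over zb10 V9, 121 of the 150 genes were again among the 150 highest IDs and 145 were among the highest 1000.

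Zm00001d044228 had 2268, 2883 and 2413 CPM in the green section and 11.0, 0.636 and 4.08 CPM in zb10 V9 leaf. The V9 libraries differed among themselves by more than 10-fold, and each lay far below the green section (log2 ratio 8.99 ± 0.90 SE, adjusted p = 3.5e-05). Zm00001d023781 was steadier, with 302, 288 and 319 CPM in the green section and 0.339, 0.227 and 0.416 CPM at V9 (log2 ratio 9.92 ± 0.32 SE, adjusted p = 6.5e-08). Zm00001d041365 had 415, 392 and 509 CPM against 0.377, 1.04 and 0.312 CPM (log2 ratio 9.62 ± 0.44 SE, adjusted p = 3.3e-07).

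Several genes had no count in zb10 V9 leaf. Zea_mays_newGene_3374 had 78.5, 50.1 and 67.1 CPM in the green section and 0 counts in the V9 libraries of zb10, which puts it at least 2918-fold higher when 3 counts in the group are taken as the floor (adjusted p = 5.8e-07). Zea_mays_newGene_10510 had 58.2, 64.9 and 64.4 CPM against 0 counts, at least 2834-fold higher on the same floor (adjusted p = 2.2e-06). In all, 9 of the 150 genes had 0 counts in the zb10 V9 libraries and 78 stayed under 1 CPM in each of them. Zm00001d042540 was the single gene that did not pass, chosen here because it fell outside the count. It had 6.82, 0.226 and 2.03 CPM in the green section and 0.0565, 0.863 and 0.0780 CPM at V9, so the groups overlapped (log2 ratio 3.22 ± 1.22 SE, adjusted p = 0.055).

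The white section was set against the same zb10 V9 libraries, which both comparisons share. Here 148 of the 150 genes were higher in the white section and 0 were lower, where 26.4% of all IDs tested were called higher and 24.2% lower. The median log2 fold change was 5.76 for the 150 genes and 0.02 for all IDs. In 147 genes each white library exceeded each V9 library, against 32.3% of all IDs tested. By the ratio used for the choice, now in zb10 white section over zb10 V9, 95 of the 150 genes were among the 150 highest IDs and 139 among the highest 1000. Zm00001d027291 had 289, 203 and 104 CPM in the white section and 1 count in all of zb10 V9, a ratio of 27832 with a 95% counting interval of 4995 to 1.1e+06 (adjusted p = 1.8e-06). That count lay in V9 replicate 3, and without this library the white section was at least 6645-fold higher with the floor of 3 counts. Without V9 replicate 1, the deepest of the 3, this ratio and the bounds against 0 counts at V9 are 1.64 times smaller. Zea_mays_newGene_18736 had 48.0, 44.5 and 64.5 CPM in the white section and 0 counts at V9, at least 2340-fold higher with that floor (adjusted p = 3.1e-07). The exceptions were Zm00001d042540 (log2 ratio 1.44 ± 1.20 SE, adjusted p = 0.34) and Zea_mays_newGene_17368 (log2 ratio 1.32 ± 1.03 SE, adjusted p = 0.31), both named because they fell outside the count.

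Between the sections of zb10 leaf, 45 of the 150 genes were lower in the white section and 1 was higher. These calls are from the edgeR quasi-likelihood test without pairing of the sections (adjusted p under 0.05). Over all 27361 IDs tested, 7.11% were lower and 9.42% were higher. Among the 17514 IDs at least as abundant in the green section as the lowest of the 150 genes, 10.1% were lower. The median log2 fold change was -0.71 for the 150 genes and -0.03 for all IDs, and 129 of the 150 fold changes were below 0. In 76 genes each white library lay below each green library, against 10.8% of all IDs tested, and in 5 genes each lay above, against 25.3%. The median gene stood at 67.6% of its green-section level, and 7 genes stood below 25%. These percents and the counts without overlap are from CPM, scaled by library totals only, unlike the calls and fold changes before them. Scaled by library size alone, all IDs had a median of 0.12 and the 150 genes of -0.56, and 38 of these were lower, while the split over all IDs moved from 2577 higher and 1944 lower to 3382 and 1048.

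The count of 45 came from a fit that did not pair the sections. It moved with the libraries in the fit and with the method. It was 21 without green replicate 1, 29 without white replicate 3, 71 with DESeq2 and 72 with the 2 sections alone. Over all IDs tested, 4.45%, 5.35%, 11% and 8.2% were lower in these fits, in that order. With the 2 sections alone and replicate numbers as a block, 89 were lower and 2 higher. In that fit, an alternative chosen after the data were seen, 11.6% of all IDs were lower and 13.3% higher. The 100 IDs most abundant in zb10 V9 leaf among those at least 16-fold above endosperm had a median log2 fold change of -0.53: 12 of these 100 were lower in the white section and 3 higher, beside 7.11% and 9.42% of all IDs tested. Their summed level was 110944 to 168136 CPM in the white and 184151 to 213077 CPM in the green section, lowest in white replicate 3. None of the 150 genes is in that list, and its part in the result was not tested.

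**Figure D3:**
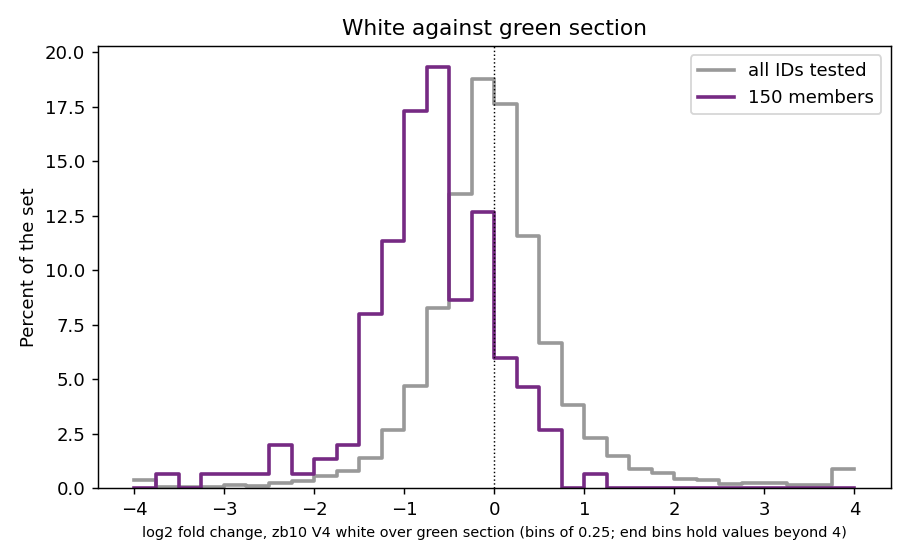
Distribution of the log2 fold change of the white over the green zb10 section at V4, as percent of the 150 genes (purple) and of the 27361 IDs tested (grey). The 150 genes centre on -0.71 and all IDs on -0.03.

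By kind of ID, 29 of the 76 new loci were lower in the white section (median log2 fold change -0.89) and 16 of the 74 reference-style genes (median -0.50). Over all IDs tested, 4.52% of new loci and 7.54% of reference-style IDs were lower. The difference between the kinds was not tested.

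Zm00001d015053 had 54.3, 38.5 and 31.8 CPM in the green section and 2.28, 9.29 and 5.60 CPM in the white section. The sections did not overlap (log2 ratio -3.01 ± 0.46 SE, adjusted p = 0.0023). Its neighbour by number, Zm00001d015054, had 39.8, 32.4 and 24.2 CPM against 1.99, 8.09 and 4.11 CPM (log2 ratio -2.91 ± 0.49 SE, adjusted p = 0.0035), and whether the pair shares reads was not tested. In WT V4 leaf, given as a description, Zm00001d015053 had 128, 195 and 83.7 CPM, above both sections of zb10. Zea_mays_newGene_17368 had 10.7, 15.6 and 4.41 CPM in the green section and 1.10, 1.54 and 0 CPM in the white section (log2 ratio -3.64 ± 0.98 SE, adjusted p = 0.03), and it no longer passed without green replicate 1 (adjusted p = 0.072), green replicate 2 (adjusted p = 0.1) or white replicate 1 (adjusted p = 0.074).

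The single gene called higher in the white section was Zm00001d002999. It had 45.2, 33.9 and 40.6 CPM in the green and 91.2, 81.0 and 111 CPM in the white section (log2 ratio 1.09 ± 0.27 SE, adjusted p = 0.022). The sections did not overlap, and at V9 in zb10 it stood at 0.509, 0.0454 and 0.208 CPM. The call was lost without any 1 of the 3 green libraries or without white replicate 1 or 3 (adjusted p of 0.055 to 0.094).

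The zb10 leaf groups are set beside WT leaf as values only, since WT was high at V4 and low at V9 by choice. The median log2 ratio of mean levels, with 1 CPM added, was -0.20 for the green section over WT V4, -0.67 for the white section over WT V4 and 0.09 for zb10 V9 over WT V9. The green mean was under 50% of the WT V4 mean in 13 genes and over 200% in 1.

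Zm00001d048709 and Zm00001d031428, among these 13 genes and named after their values were seen, had green means of 22.4% and 17.0% of WT V4. Zm00001d042540 (8.42%) and Zm00001d024886 (19.0%) also stood this low. In Zm00001d028282 and Zm00001d021702, also among the 13, the white mean was 175% and 147% of the green mean. Neither passed the white against green test (adjusted p = 0.52 and 0.71). In the rest of the 13 the white mean was below the green mean. Replicates of the green section differed in the first genes named. Zm00001d048709 had 325, 506 and 466 CPM in WT V4, 157, 84.1 and 49.6 CPM in the green and 34.2, 17.7 and 6.83 CPM in the white section. Each group lay below the one before it, and white against green passed the test (log2 ratio -2.41 ± 0.63 SE, adjusted p = 0.027). Zm00001d031428 had 80.1, 76.1 and 109.6 CPM in WT V4, 15.5, 28.1 and 1.58 CPM in the green and 6.57, 2.46 and 0.177 CPM in the white section, where the sections overlapped and the test did not pass (adjusted p = 0.16). White was below green within each replicate number. With replicate numbers as a block in the edgeR fit of 9 libraries, zb10 V9 included, the gene passed (log2 ratio -2.69 ± 0.49 SE, adjusted p = 0.011).

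In endosperm most of the 150 genes were at or near 0. Of the 150, 146 were lower in zb10 endosperm than in the zb10 V4 green section and 2 were higher (edgeR quasi-likelihood test), where 39.5% of the 27993 IDs tested were lower and 37.7% higher. The median log2 fold change was -8.48 for the 150 genes, which includes genes with 0 counts in endosperm, and -0.05 for all IDs; the latter moved to -0.28 with library size as the only scaling and to 0.26 with upper quartile scaling. Each endosperm library lay below each green library in 146 genes, against 46.0% of the IDs tested, and above in 1, against 35.0%. The 150 genes were chosen high in WT V4 leaf, while the IDs tested were not restricted to IDs high in leaf. A share among IDs of like green-section level was not taken for this comparison. In zb10 endosperm 46 genes had 0 counts in each library, 101 stayed under 1 CPM in each and 7 reached 10 CPM in each. All 150 genes passed the count filter, and genes near 0 in endosperm passed through the green libraries. Lower was the only direction in which such genes could be called. Zm00001d044396 had 2105, 1567 and 1697 CPM in the green section and 0 counts in the zb10 endosperm libraries, at least 56190.1-fold lower with the floor of 3 counts (adjusted p = 8.8e-07). Zm00001d044402 had 1612, 1041 and 1228 CPM against 0 counts, at least 40475-fold lower (adjusted p = 1.4e-06). At V9, Zm00001d044396 had 13.7, 27.4 and 34.2 CPM in zb10; V9 leaf and endosperm were not tested against each other.

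The list of 100 leaf IDs, selected to be low in endosperm, summed to 579 to 798 CPM in the 6 endosperm libraries, 0.269% to 0.371% of its level in zb10 V9 leaf. The median of the 150 genes in zb10 endosperm was 0.241% of the green-section level, 50 genes stood above 1% and 21 above 10%. The part of leaf transcripts in the endosperm values was not tested.

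**Figure D4:**
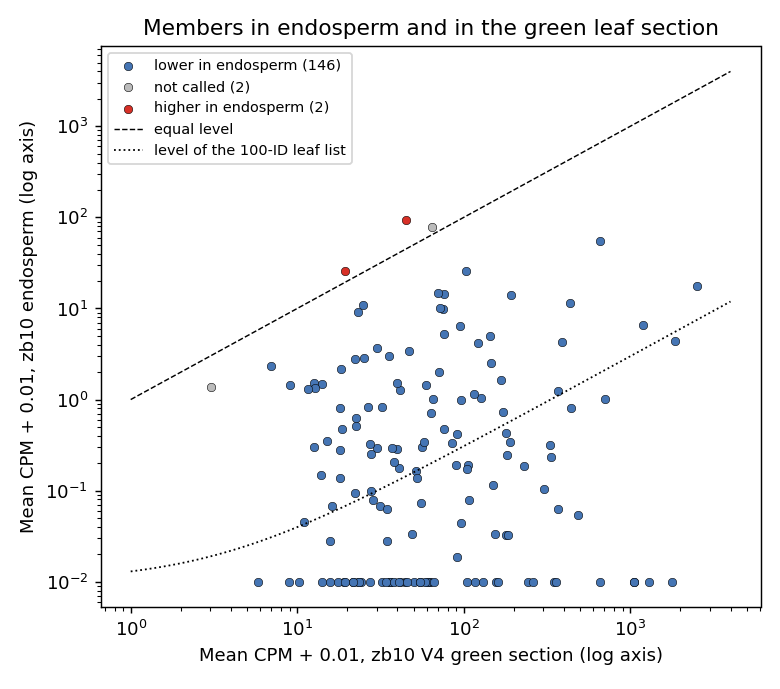
Mean level of each of the 150 genes in zb10 endosperm against the zb10 V4 green section (CPM + 0.01, log axes), coloured by the test between them. The dashed line marks equal levels. The dotted line applies to the green-section level the zb10 endosperm level of the 100 leaf IDs as percent of zb10 V9 leaf. Those IDs were selected to be low in endosperm. Of the 150 points, 146 are called lower, 2 higher and 2 not called.

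A small number of the 150 genes were abundant in endosperm. Zm00001d032810 had 102, 83.3 and 96.6 CPM in zb10 endosperm, 90.4, 93.1 and 113 CPM in WT endosperm and 43.9, 43.0 and 47.2 CPM in the green section. Its level in zb10 endosperm was above that in the green section (log2 ratio 1.31 ± 0.12 SE, adjusted p = 3.2e-05), and its level in zb10 V9 leaf was 0.584, 1.98 and 1.01 CPM. Zea_mays_newGene_19719 had 89.9, 58.7 and 83.8 CPM in zb10 endosperm and 81.9, 47.9 and 63.7 CPM in the green section. These overlapped and the test did not pass (log2 ratio 0.51 ± 0.24 SE, adjusted p = 0.085), while at V9 it stood at 1.04, 3.75 and 1.17 CPM. The other gene called higher, Zm00001d048246, is named because it completes the count of 2: it had 29.0, 27.3 and 20.7 CPM in zb10 endosperm and 19.3, 22.1 and 16.8 CPM in the green section, which overlapped (log2 ratio 0.63 ± 0.17 SE, adjusted p = 0.011). With library size as the only scaling, 1 gene was higher in place of 2. With DESeq2, upper quartile scaling or the replicate block, 3 were higher.

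**Figure D5:**
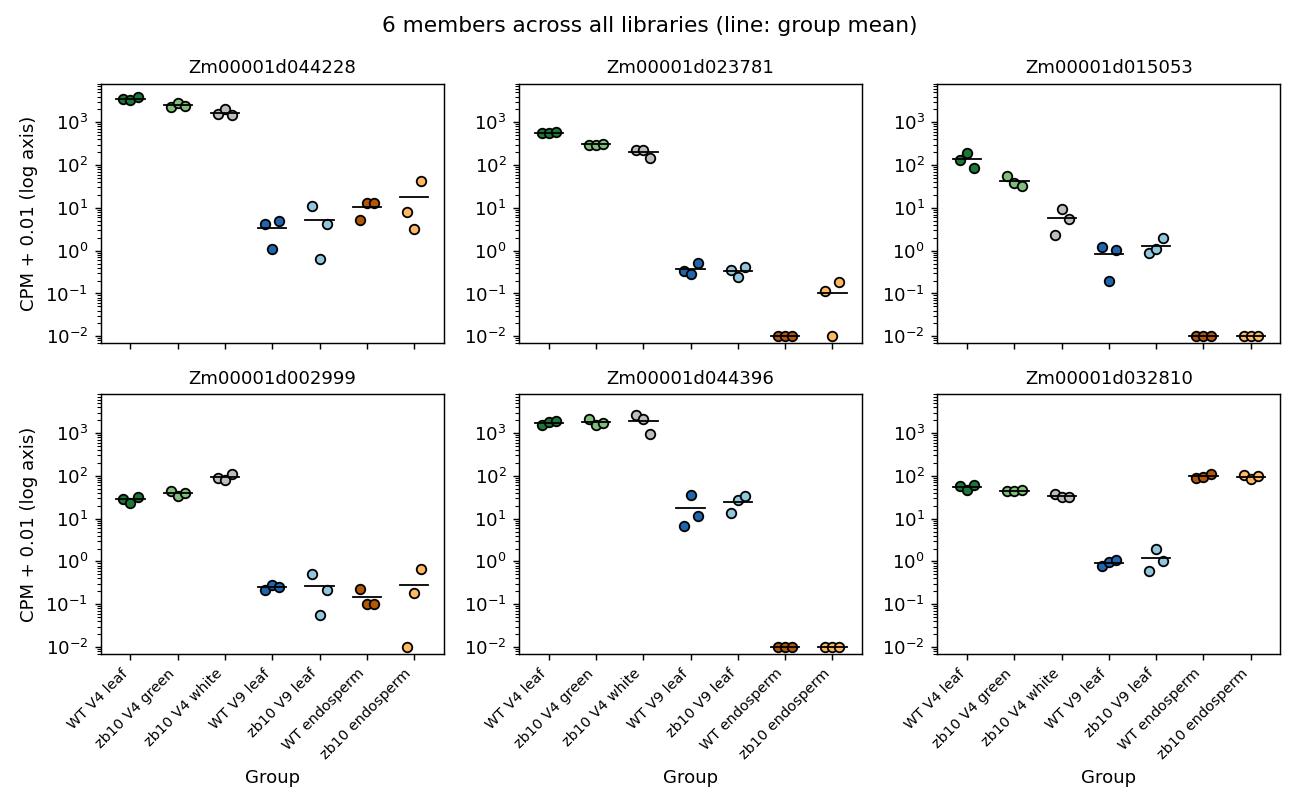
Level of 6 of the 150 genes in each library (CPM + 0.01, log axis; line, group mean; n = 3 per group). Zm00001d044228, Zm00001d023781 and Zm00001d044396 are high in the V4 groups, Zm00001d015053 is lower in the white than in the green section, Zm00001d002999 is higher in the white section, and Zm00001d032810 is high in V4 leaf and endosperm and low at V9.

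Between zb10 and WT endosperm, 0 of the 150 genes differed by edgeR's quasi-likelihood test and 0 by DESeq2. Only 68 of them passed the count filter. Without adjustment, 5 of the 68 had p under 0.05 with edgeR and 6 with DESeq2, beside 1470 and 1403 of the 25366 IDs tested. The lowest adjusted p among the 68 was 0.77 with edgeR. Over all 25366 IDs tested, 0.0197% were called higher and 0.0158% lower by edgeR after adjustment. Of the 68, 8 were higher in each zb10 than in each WT library, against 5.33% of the IDs tested, and 6 were lower, against 5.16%. The median log2 fold change of the 68 was -0.01, with single values from -1.25 to 1.38. Zm00001d044228 had 8.10, 3.22 and 41.9 CPM in zb10 and 5.11, 13.0 and 12.8 CPM in WT endosperm, so that 1 zb10 library lay above the rest and the groups overlapped (log2 ratio 0.82 ± 0.82 SE, adjusted p = 0.94). Missing calls do not show that the genotypes were alike in this tissue.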

How the data were processed

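Per the labels' protocols, a column kit gave the RNA and a SMARTer mRNA kit the libraries. The authors deposited 1 table of raw counts per gene ID. Not given in the sources used here: aligner, counting tool, strand setting, build and annotation. The table writes zb9 for zb10 and 3L for V4; columns were matched to the only labelled group each could be, and 0 columns stayed without a sample. Replicates are biological by the series design; a p-value reflects how far these libraries spread.

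The test was the quasi-likelihood F-test of edgeR 4.0.16 under R 4.3.3 with TMM factors. IDs were kept by filterByExpr (count 10, total 15), and p-values were adjusted by Benjamini-Hochberg over all IDs kept, with 0.05 as the threshold. The 9 zb10 leaf libraries were fitted together, and each endosperm comparison with its 6 libraries. DESeq2 1.42.0 and other scalings, filters, library sets and single-library omissions were alternatives. Levels in CPM, and the percents and overlaps taken from them, use library totals and not TMM factors. Each SE is the log2 fold change (printed as log2 ratio) divided by the root of F. Floors and counting intervals cover counting error only, as PCR copies of a molecule may be counted more than once.

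The 150 genes and lists were chosen with earlier results of these data known. Named were the 4 genes of highest ratio, up to 2 per direction and comparison of largest fold change among called genes without overlap, the 2 highest in endosperm and those at the limit of the choice; others are marked where named. A planned permutation test of the shares is not reported, since no p is given for a score over genes chosen with results known. White and green sections with the same replicate number deviated together from their group means (correlations across IDs of 0.12, 0.128 and 0.198). The numbers were therefore taken to pair these libraries, from the values, as the labels only number them. In the other comparisons same-numbered correlations were -0.043 to 0.045. The main fit did not pair the sections. The block in the fit of 9 libraries also covered zb10 V9. Only the fit of the 2 sections alone with the block paired just these.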

Additional observations from a re-analysis of the deposited data

How the results depend on the processing

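The counts of the 150 genes called between V4 and V9 in zb10 stayed at 148 to 150 for the green and 146 to 148 for the white section in the alternatives run, and those lower in endosperm than in the green section at 146 to 147. In white against green, 45 lower became 71 with DESeq2, 72 with the compared groups alone, 89 with these and the replicate block, and 21 to 41 with 1 library left out. Over all IDs tested, 7.11% lower became 11%, 8.2%, 11.6% and 4.2% to 5.45%, in the same order. The 1 higher became 2 with the compared groups alone and the replicate block and 0 to 1 with 1 library left out. Over all IDs, 9.42% higher became 13.3% and 5.6% to 6.45%. The replicate block in the fit of 9 libraries gave 48 lower and 1 higher (8 calls gained, 5 lost), beside 6.48% and 8.37% of all IDs. No other count over the 150 genes moved by over 1.5 times with that block. Over all IDs, 2577 higher and 1944 lower in white against green became 1582 to 1821 and 1186 to 1539 with 1 library left out, and DESeq2 gave 3006 lower; between endosperm genotypes 5 higher and 4 lower became 68 and 50 with DESeq2, 14 and 13 without a count filter, 0 and 3 with the replicate block, 0 and 0 without WT replicate 3, 0 and 1 without WT replicate 1, 3 and 2 without WT replicate 2, 10 and 3 without zb10 replicate 1, 4 and 6 without zb10 replicate 2, 1 and 2 without zb10 replicate 3, and 9 and 6 with all 21 libraries in the fit. In endosperm against the green section, 2 higher became 1 with library size only. The count became 3 with DESeq2, upper quartile scaling or the replicate block, and without green replicate 1 or zb10 endosperm replicate 2. Over all IDs, 37.7% higher became 32.9% with library size only and 35.4% to 43.6% in the fits with 3. The cause of these shifts was not tested. The share of the green section was 2.26% without the most abundant of the 150 genes and 2.95% without the 50 most abundant IDs; on that basis zb10 V9 held 0.0429%, zb10 endosperm 0.0820% and WT endosperm 0.0769%. The 10 results of genes named for the largest fold change in a comparison had 144 alternatives. Of these, 136 kept the call and 8 lost it, all in white against green with 1 library left out. The direction was kept in these 144. Genes named on other grounds are not among them, and of those Zm00001d031428 gained a call in white against green with the replicate block. Depth limits genes near 0: a floor of 3 counts is 0.0221 CPM over zb10 V9 and 0.0316 CPM over zb10 endosperm.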
